A study of Mus musculus with 6 samples.

Results

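The genes of the interleukins and their receptors were followed in megakaryocyte progenitors, the precursors of the platelet-forming cells. They were all genes whose symbol in the array's annotation begins with Il and a digit, 73 of the 18193 genes named by a probe set with 1 symbol. By role they were 31 ligands, 35 receptor chains, 5 antagonists or binding proteins, and 2 others, the antisense transcript Il1bos and the enzyme gene Il4i1. Where a gene had several probe sets (27 of the 73), the one with the highest mean log2 signal over all arrays was used.

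The cells came from adult bone marrow of mice aged 12 to 18 weeks (3 arrays) and from fetal liver at E13.5 (3 arrays). Both groups carried GATA1s, the shortened form of the transcription factor GATA1, on a C57BL/6 background, and no cells with full-length GATA1 were analysed here, so no difference can be assigned to the genotype. The sort took lin-, Sca-1-, c-kit+, CD150+, CD41+ cells. The labels name biological replicates but neither the animals behind each nor any pooling, so p-values measure only the spread between these samples, and batches are not named. Median signal over all probe sets was 65.9 to 74.6 in bone marrow and 52.0 to 59.1 in fetal liver. Of the 8 tested genes of the megakaryocyte progenitor list, Pf4, Itga2b and Itgb3 had the highest signals. Itga2b, Slamf1 and Kit of that list encode CD41, CD150 and c-kit, on which the cells were sorted, so their signals do not test the label. The list's summed signal was 25070.4 to 28220.4 in bone marrow and 20019.6 to 33623 in fetal liver. It had 1 gene called in each direction and its lowest sum on fetal liver replicate 1. In bone marrow the 12 granulocyte and monocyte markers had a higher summed signal, 55689 to 68198.

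Interleukins are secreted proteins through which blood cells and their neighbours signal to each other. Members of the IL-1 family bind receptors with an intracellular domain shared with Toll-like receptors, IL-1 beta and IL-18 are cut to their active form by caspase-1, and decoy receptors and antagonists limit the response. Most other interleukins bind paired receptor chains that signal through Janus kinases and STAT transcription factors, sharing a chain within each family. In the marrow, IL-1, IL-3, IL-6 and IL-11 are known to act on megakaryocyte formation.

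Interleukin and receptor genes were called higher in bone marrow far more often than lower. Of the 33 that passed the filter on low signals (a signal of 22.9 for the geometric mean over the 6 arrays), 21 were higher in bone marrow, 1 was lower and 11 were not called (limma, adjusted p threshold 0.05). Over all 11645 genes tested the share called was 36.1 percent, with 18.3 percent higher and 17.8 percent lower in bone marrow. The median log2 difference, bone marrow minus fetal liver throughout, was 0.94 over the 33 genes and -0.04 over all genes tested. Of the 33, 8 had a fetal liver mean below the filter's signal and none had such a bone marrow mean. A gene that passes through 1 group alone can only lie higher in that group, called or not, so the count over the 33 is not one over all 73.

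With no filter, 26 of the 73 genes were called higher and 2 lower in bone marrow, against 12.6 percent and 10.7 percent of all 18193 named genes (23.2 percent in either direction). All 3 bone marrow arrays lay above all 3 fetal liver arrays for 31 of the 73, and the reverse held for 4, against 18.8 percent and 19.9 percent of all named genes. The median log2 difference over the 73 was 0.47, or 0.18 with each signal below the control level raised to it. The control level was the upper end (the 95th percentile) of bacterial control probe sets that received no spiked RNA, a signal of 10.6. In bulk RNA, fewer cells of a type and less RNA per cell cannot be told apart, and this holds for every difference given here.

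**Figure D1:**
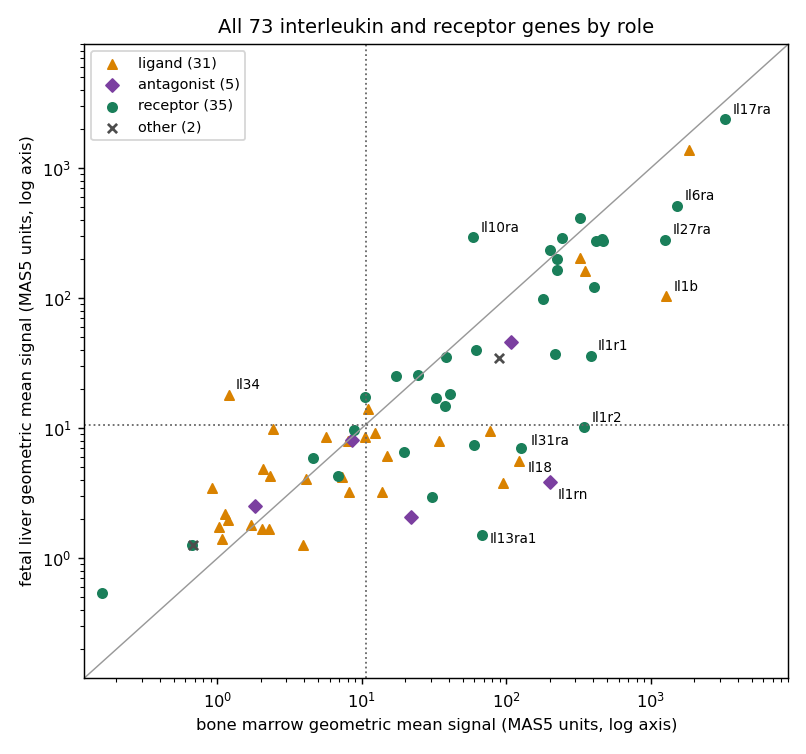
Geometric mean signal of each of the 73 genes in bone marrow (x axis) and fetal liver (y axis), in MAS5 intensity units on log axes, with the role shown by the symbol. The dotted lines mark the control level of 10.6 and the diagonal marks equal signals. Most receptors and ligands above the control level lie on the bone marrow side. Il34 and Il10ra lie farthest to the fetal liver side, where Il21r, Il18rap, Il3ra and others also lie, nearer the diagonal.

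Ligands and receptors differed in how many were detected. Of 31 ligand genes, 18 had both group means below the control level, 7 had only the fetal liver mean below it and 1 only the bone marrow mean, and 6 passed the filter. Of 35 receptor genes, 5 had both means below the control level and 24 passed the filter. All 6 tested ligands were higher in bone marrow, against 18.3 percent of all genes tested. Their median log2 difference was 2.08, or 1.99 with signals raised to the control level. Of the 6, Il18 and Il6 passed the filter through bone marrow alone and could only be higher there. Among the 24 tested receptors, 12 were higher, 1 was lower and 11 were not called, with a median log2 difference of 0.72. Of the 24, 5 passed the filter through bone marrow alone.

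The sequences just before the start of 4 genes are shown first, because these are the called genes with the largest differences among those with a single promoter window in the RefSeq table (assembly GRCm38.p6). Each is the 250 bases upstream of the start listed there, read 5′ to 3′ on the gene's strand, with capitals marking a match to a motif given after them.
Il1r2, chr1:40085843-40086092, plus strand: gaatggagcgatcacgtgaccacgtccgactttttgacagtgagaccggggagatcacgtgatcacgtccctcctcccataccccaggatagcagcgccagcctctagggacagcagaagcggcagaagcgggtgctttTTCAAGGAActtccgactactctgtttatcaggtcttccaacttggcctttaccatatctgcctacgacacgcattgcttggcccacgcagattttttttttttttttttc
Il18, chr9:50554450-50554699, plus strand: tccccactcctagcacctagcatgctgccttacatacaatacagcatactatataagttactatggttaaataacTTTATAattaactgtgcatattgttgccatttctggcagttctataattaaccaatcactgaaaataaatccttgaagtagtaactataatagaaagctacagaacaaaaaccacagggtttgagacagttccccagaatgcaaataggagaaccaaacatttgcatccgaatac
Il31ra, chr13:112580663-112580912, minus strand: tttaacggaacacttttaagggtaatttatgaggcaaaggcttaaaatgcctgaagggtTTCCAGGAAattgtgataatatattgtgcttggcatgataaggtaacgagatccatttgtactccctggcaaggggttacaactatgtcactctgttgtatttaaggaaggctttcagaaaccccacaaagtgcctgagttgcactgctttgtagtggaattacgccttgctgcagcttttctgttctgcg
Il1b, chr2:129371140-129371389, minus strand: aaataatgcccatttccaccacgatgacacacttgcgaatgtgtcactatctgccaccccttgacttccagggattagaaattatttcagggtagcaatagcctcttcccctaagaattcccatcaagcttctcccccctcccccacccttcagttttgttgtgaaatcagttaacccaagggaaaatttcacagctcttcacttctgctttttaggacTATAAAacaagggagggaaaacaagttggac
The Il1b window held TATAAA at -31 to -26 from the start, and the Il18 window held it on the opposite strand at -175 to -170. The windows of Il1r2 (-111 to -103) and Il31ra (-191 to -183) each held TTCNNNGAA, a palindromic STAT motif. The listed start of Il1r2 lies inside the span of the gene, and the windows of Il31ra and Il1b reach into the spans of theirs, so a window need not precede the outermost start.

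Across the 17 genes called higher that had a promoter in the table, motifs were searched on both strands of the same 250 bases, in any window of the gene, and set beside the share of all 27025 genes in the table. TATAAA stood in 3 of the 17 genes and in 14.3 percent of all genes, and TTCNNNGAA in 3 genes and 8.13 percent. The C/EBP motif TTGCNNAA was found in 5 genes (10.8 percent of all genes), the NF-kB motif in 6 (19.7 percent) and the AP-1 motif TGANTCA in 5 (7.82 percent). GAGGAA, the core bound by PU.1, stood in 2 genes (25.9 percent), and AGATAA, the core bound by GATA factors, in 1, Il6ra (11.4 percent). A match is a run of letters and not a measured site.

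The IL-1 family held the largest differences of the ligands. Il1b encodes interleukin-1 beta, a fever-causing cytokine of myeloid cells. Its signal was 1286, 1128 and 1471 in bone marrow, against 94.1, 95.6 and 125 in fetal liver. The arrays of the groups lay far apart, and the log2 difference was 3.63 ± 0.17 (SE, adjusted p = 1.36e-06), a 12.4-fold higher geometric mean in bone marrow. Il18 encodes interleukin-18, an inducer of interferon gamma. The bone marrow signals were 83.5, 131 and 167, against 3.04, 5.33 and 10.7 in fetal liver, where 2 of 3 arrays were below the control level. Its signal was thus at least 11.5-fold higher in bone marrow (adjusted p = 1.99e-04). For such genes the bound is the bone marrow geometric mean over that of fetal liver with every array below the control level raised to it.

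Both soluble inhibitors that were tested moved the same way as the ligands they bind or compete with. Il1rn encodes the IL-1 receptor antagonist, which occupies the receptor without signalling. Signals were 126, 244 and 268 in bone marrow and 10.7, 5.39 and 0.979 in fetal liver. Bone marrow was at least 19.0-fold higher (adjusted p = 5.30e-04), and fetal liver replicates 2 and 3 were below the control level. Its fitted log2 difference of 5.72 moved to 6.46 without fetal liver replicate 1 and to 4.74 without fetal liver replicate 3. Other Il1rn probe sets, which did not pass the filter, had smaller bone marrow signals. Their geometric means were 18.7 and 24.8 in bone marrow and 8.88 and 3.67 in fetal liver. Il18bp encodes a secreted protein that binds interleukin-18. Its signals were 140.4, 103 and 87.4 in bone marrow, against 33.2, 58.2 and 51.2 in fetal liver, without overlap. The log2 difference was 1.22 ± 0.31 (SE, adjusted p = 0.0134), and the call was lost under quantile normalization (0.91, adjusted p = 0.0533).

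Il1bos, an antisense transcript whose gene overlaps Il1b, had signals of 131, 56.2 and 98.1 in bone marrow and 38.4, 23.0 and 47.2 in fetal liver. The groups did not overlap, with a log2 difference of 1.37 ± 0.40 (SE, adjusted p = 0.0252). The call was lost without bone marrow replicate 1 (adjusted p = 0.0825), bone marrow replicate 3 (0.0817) or fetal liver replicate 2 (0.0757). Whether its probe set also takes up Il1b RNA was not tested.

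Of the other ligands tested, Il6 differed most. Il6 encodes interleukin-6, which signals through the shared chain gp130. Its bone marrow replicates had signals of 156, 55.8 and 54.2, and its fetal liver replicates 9.02, 9.11 and 10.3, all 3 of the last below the control level. Bone marrow was at least 7.32-fold higher (adjusted p = 0.00103), and bone marrow replicate 1 stood well above the other bone marrow arrays. Without that array the fitted log2 difference was 2.54 (adjusted p = 0.00328), against 3.04 with it.

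Il16, Il15 and Il12a showed smaller differences. Il16 encodes a chemoattractant for cells carrying CD4, and it had signals of 254, 392 and 441 in bone marrow and 212, 164 and 124 in fetal liver. The log2 difference was 1.12 ± 0.26 (SE, adjusted p = 0.00987). Il15 encodes a cytokine that sustains natural killer cells, with signals of 322, 274 and 380.5 in bone marrow and 236, 176 and 206 in fetal liver. Its lowest bone marrow array lay above its highest fetal liver array, and the log2 difference was 0.66 ± 0.19 (SE, adjusted p = 0.0230). The Il15 call was lost without bone marrow replicate 3 (adjusted p = 0.101), fetal liver replicate 2 (0.0700) or fetal liver replicate 3 (0.0600), and under quantile normalization (0.0708). Il12a encodes the p35 subunit shared by IL-12 and IL-35. Its signals were 1944, 1989 and 1649 in bone marrow and 1133, 1495 and 1518 in fetal liver, also without overlap, and a log2 difference of 0.44 ± 0.14 (SE, adjusted p = 0.0325). The Il12a call was lost without bone marrow replicate 1 (adjusted p = 0.0883), bone marrow replicate 2 (0.106) or fetal liver replicate 1 (0.0628), under median centring (0.146), with no intensity trend (0.0724) and with array weights (0.0604).

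**Figure D2:**
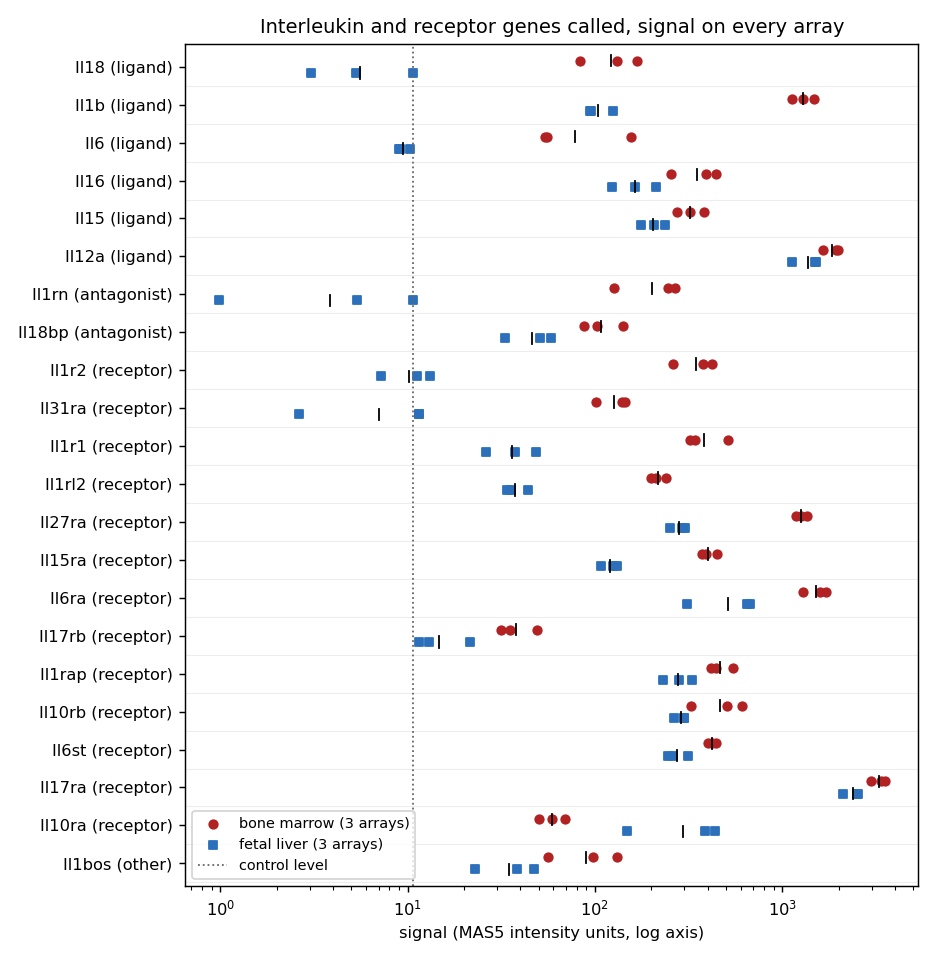
Signal of the 22 called genes on each array, in MAS5 intensity units on a log axis, with bone marrow (circles, 3 arrays) drawn above fetal liver (squares, 3 arrays) in each row, short bars at the geometric mean and the control level dotted. Il10ra is the gene whose bone marrow arrays lie below its fetal liver arrays, and Il18, Il6, Il1rn, Il1r2 and Il31ra have fetal liver arrays below the control level of 10.6.

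Among receptors, those of the IL-1 family differed most: 4 of the 5 tested were higher in bone marrow, against 18.3 percent of all genes tested. The median log2 difference of the 5 was 2.53, and Il1r2 passed the filter through bone marrow alone. Il1r1 encodes the signalling receptor of IL-1. Signal was 515, 343 and 322 in bone marrow and 48.5, 26.2 and 37.3 in fetal liver. That is a 10.6-fold difference with no overlap (log2 difference 3.41 ± 0.29, SE, adjusted p = 3.07e-05). Il1r2 encodes the decoy receptor, which binds IL-1 without signalling. Its signals were 259.9, 375 and 422 in bone marrow, against 7.22, 11.2 and 13.2 in fetal liver, of which the first lies below the control level. Bone marrow was at least 29.7-fold higher (adjusted p = 6.65e-06), the largest bound among the 73 genes.

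The other receptor chains of this family differed less. Il1rl2 encodes the receptor of the IL-36 cytokines. Arrays read 198, 240.3 and 213 in bone marrow and 35.7, 33.8 and 43.7 in fetal liver, and the arrays within each group lay close together (log2 difference 2.53 ± 0.23, SE, adjusted p = 4.21e-05). Il1rap encodes the accessory chain that completes the IL-1 receptor. Signals of 548, 441 and 418 were found in bone marrow and 279, 229.9 and 330.1 in fetal liver (log2 difference 0.75 ± 0.18, SE, adjusted p = 0.0108). Its probe sets did not all pass the test, and with their mean the call was lost (0.61, adjusted p = 0.110). Il18rap, the accessory chain of the IL-18 receptor, was not called: its signals of 94.6, 387 and 392 in bone marrow enclosed those of fetal liver, 189, 331 and 381. Its log2 difference was -0.25 (95% interval -1.40 to 0.91, adjusted p = 0.740), and without bone marrow replicate 1, the lowest array, it was 0.43 (adjusted p = 0.277).

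Counted over all roles and with Il18bp added to the family, 8 of 9 tested IL-1 family genes were higher in bone marrow. The share over all genes tested was 18.3 percent. Of the 9, 3 (Il18, Il1rn and Il1r2) passed the filter through bone marrow alone and could only be higher there. Bone marrow lay above fetal liver without overlap for 11 of the 19 family genes, against 18.8 percent of all named genes. Several of these genes are neighbours. On chromosome 1 the order is Il1r2, Il1r1, Il1rl2, Il18r1 and Il18rap, and the first 4 were higher in bone marrow without overlap while Il18rap overlapped. Il18r1, the ligand-binding chain for IL-18, did not pass the filter. Arrays read 42.5, 80.6 and 61.5 in bone marrow and 4.78, 8.99 and 9.34 in fetal liver, at least 5.59-fold higher (adjusted p = 0.00187 in the fit with no filter).

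Chains of the IL-6 receptor group were all 3 called higher, against 18.3 percent of all genes tested. Of the 3, Il31ra passed the filter through bone marrow alone. Il6ra encodes the IL-6-binding chain. The signals were 1719, 1581 and 1294 in bone marrow and 312, 672 and 650.0 in fetal liver, where replicate 1 was the lowest (log2 difference 1.56 ± 0.27, SE, adjusted p = 0.00197). Il31ra encodes a chain of the IL-31 receptor. Its signals were 101, 145 and 140.2 in bone marrow, against 11.5, 2.63 and 11.5 in fetal liver, so bone marrow was at least 11.3-fold higher (adjusted p = 5.53e-04). Fetal liver replicate 2 was below the control level, and without it the fitted log2 difference was 3.46, against 4.17 with it. A second Il31ra probe set had signals of 63.5, 84.3 and 70.4 in bone marrow and 10.9, 5.10 and 0.791 in fetal liver.

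Il6st encodes gp130, the signal-transducing chain of the group, and lies beside Il31ra on chromosome 13. Signal was 445, 399.6 and 419 in bone marrow and 263, 315 and 247 in fetal liver (log2 difference 0.62 ± 0.15, SE, adjusted p = 0.0113). Its 4 tested probe sets did not share a sign, ranging over log2 differences of -0.13, 0.26, 0.62 and 0.79, and with their mean the call was lost (0.39, adjusted p = 0.198).

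In the IL-12 and IL-27 group 1 of 3 receptors was called, against 36.1 percent of all genes tested. Of the 3, Il12rb1 passed the filter through bone marrow alone and could only lie higher there. Il27ra encodes the specific chain of the IL-27 receptor. The arrays read 1183, 1359 and 1261 in bone marrow and 291, 302 and 252 in fetal liver, a 4.51-fold difference between tightly grouped arrays (log2 difference 2.17 ± 0.13, SE, adjusted p = 3.70e-06). The IL-12 receptor chains were not called: Il12rb1 had a log2 difference of 1.14 (95% interval 0.03 to 2.24, adjusted p = 0.101) and Il12rb2 one of 0.12 (-0.66 to 0.90, adjusted p = 0.816).

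Il15ra was the 1 called gene of 4 tested receptors of the common gamma chain group, where 36.1 percent of all genes tested were called. It encodes the chain that presents IL-15 to neighbouring cells, and had signals of 374, 391 and 450.0 in bone marrow and 132, 108 and 124 in fetal liver. The arrays of the groups were well apart (log2 difference 1.74 ± 0.17, SE, adjusted p = 7.07e-05). Another Il15ra probe set that passed the filter had a smaller log2 difference of 0.70. The other 3 tested receptors of the group were not called. Il21r, for the IL-21 receptor, had signals of 366, 299 and 319 in bone marrow and 287, 466 and 536 in fetal liver (log2 difference -0.35, 95% interval -0.86 to 0.17, adjusted p = 0.266). Without fetal liver replicate 1 it was -0.61 (adjusted p = 0.0179), so 1 array decided whether it was called lower in bone marrow.

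Il7r encodes the IL-7 receptor of lymphoid progenitors, with signals of 94.2, 225 and 269 in bone marrow and 152, 72.9 and 88.9 in fetal liver (log2 difference 0.84, 95% interval -0.09 to 1.78, adjusted p = 0.142). Its low bone marrow array, replicate 1, also had the lowest summed signal of the B lymphoid markers, and without it Il7r was called higher (1.31, adjusted p = 0.0155). Il4ra, the chain shared by the IL-4 and IL-13 receptors, had signals of 263, 209 and 211 in bone marrow and 180.0, 188 and 234 in fetal liver. The groups overlapped (log2 difference 0.18, 95% interval -0.23 to 0.60, adjusted p = 0.472), and the sign turned under quantile normalization (-0.047, adjusted p = 0.862).

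Il10ra was the 1 tested gene called lower in bone marrow. It encodes the ligand-binding chain of the receptor for IL-10, an anti-inflammatory cytokine. Its signals were 50.4, 58.8 and 69.6 in bone marrow, against 149, 389 and 439 in fetal liver. Fetal liver replicate 1 was low among its group but still above every bone marrow array. The log2 difference was -2.31 ± 0.38 (SE, adjusted p = 0.00156), a geometric mean 4.97-fold lower in bone marrow, and it was -2.81 without fetal liver replicate 1. Other Il10ra probe sets did not pass the filter, so the call rests on 1 probe set. Their geometric means were 19.3 and 1.09 in bone marrow and 15.3 and 5.10 in fetal liver. The partner gene Il10rb, which also serves IL-22 and other receptors, was higher in bone marrow, at 324, 610.2 and 505, against 298, 266 and 297 in fetal liver (log2 difference 0.70 ± 0.22, SE, adjusted p = 0.0363).

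The Il10rb call did not hold without bone marrow replicate 2 (0.50, adjusted p = 0.127) or 3 (adjusted p = 0.113), nor without fetal liver replicate 1 (0.0502), 2 (0.0995) or 3 (0.0760). The call was also lost under quantile normalization (0.105), median centring (0.0757) and no intensity trend (0.0663). The other 3 tested receptors of the IL-10 and IL-20 group were not called. Il20ra had signals of 241, 222 and 217 in bone marrow and 91.2, 228 and 220.0 in fetal liver (log2 difference 0.45, 95% interval -0.29 to 1.19, adjusted p = 0.317), where fetal liver replicate 1 alone was low. Il20rb had a log2 difference of 0.63 (-0.09 to 1.35, adjusted p = 0.153) and Il22ra1 one of -0.08 (-1.23 to 1.07, adjusted p = 0.921).

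In the IL-17 receptor family 2 of 3 tested genes were called higher, against 18.3 percent of all genes tested. Of the 3, Il17rb and Il17re passed the filter through bone marrow alone and could only lie higher there. Il17ra, the chain common to the family's receptors, had signals of 2990.4, 3359.7 and 3543 in bone marrow and 2512, 2548 and 2111 in fetal liver. The difference was small beside those of the IL-1 receptors (log2 difference 0.47 ± 0.10, SE, adjusted p = 0.00786) and missed the threshold under median centring (0.31, adjusted p = 0.0515). Il17rb, which binds IL-25, had signals of 35.1, 48.8 and 31.5 in bone marrow and 21.4, 13.0 and 11.5 in fetal liver (log2 difference 1.36 ± 0.41, SE, adjusted p = 0.0290). That call was lost without bone marrow replicate 1 (adjusted p = 0.0589), 2 (0.118) or 3 (0.0645), without fetal liver replicate 2 (0.0659) or 3 (0.0842), under quantile normalization (0.0760) and with no filter (0.0602). Il17re was not called although the groups did not overlap (0.94, 95% interval 0.14 to 1.74, adjusted p = 0.0658).

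Il3ra, the specific chain of the receptor for IL-3, was not called. Its signals were 201, 198 and 203 in bone marrow and 206, 293 and 215 in fetal liver (log2 difference -0.23, 95% interval -0.65 to 0.19, adjusted p = 0.364). The bone marrow arrays lay just below all fetal liver arrays. A p that misses the threshold does not show equal levels, and the intervals of the uncalled receptors include differences of over 1 log2 unit for Il12rb1, Il17re, Il7r, Il20rb, Il20ra, Il22ra1 and, downward, Il18rap and Il22ra1.

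**Figure D3:**
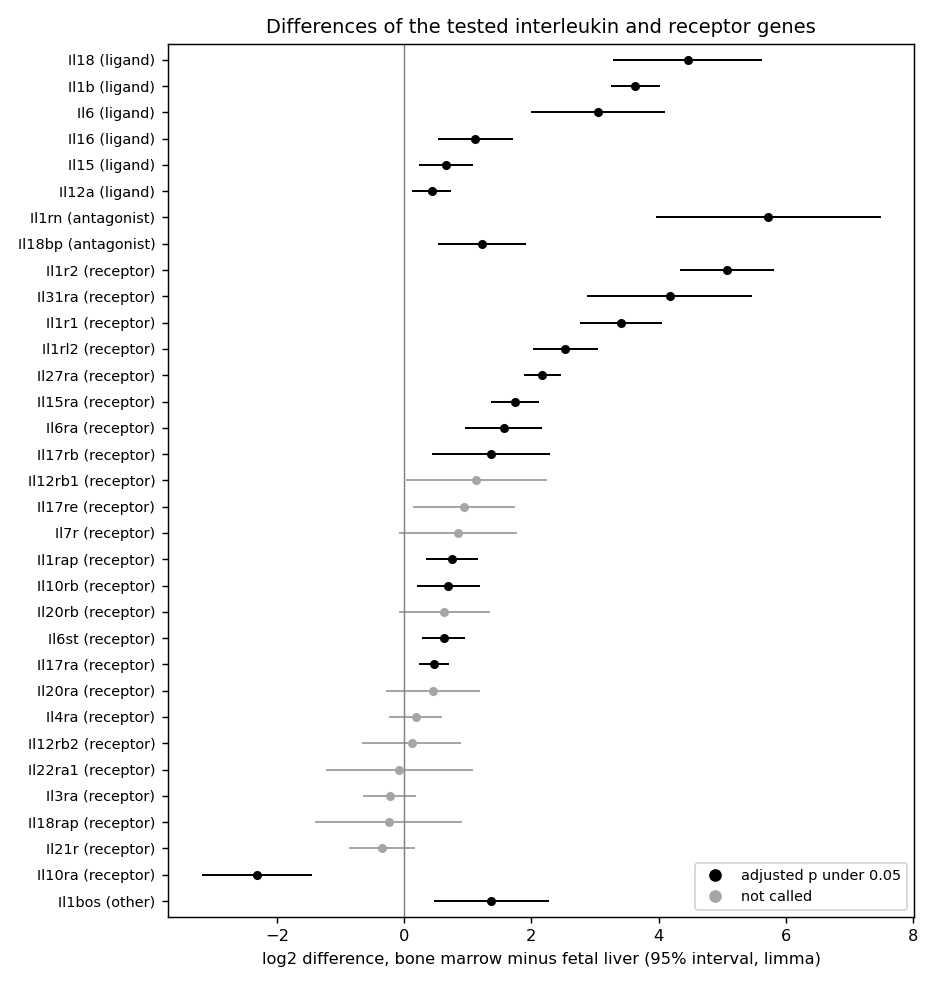
Log2 difference (bone marrow minus fetal liver) of the 33 tested genes with its 95% interval from limma, ordered by role and size, black where called at an adjusted p under 0.05 and grey where not called. The ligands and antagonists lie to the right of 0, the receptors run from 5.08 for Il1r2 to -2.31 for Il10ra, and grey intervals of most uncalled receptors cross 0.

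The 40 genes that did not pass the filter were 25 ligands, 11 receptors, 3 antagonists or binding proteins, and Il4i1. The ligands were Il1a, Il33, Il1f6, Il1f8, Il1f9, Il2, Il4, Il7, Il9, Il21, Il13, Il3, Il5, Il11, Il31, Il12b, Il23a, Il10, Il20, Il24, Il17a, Il17b, Il17d, Il25 and Il34. The receptors were Il18r1, Il1rapl1, Il1rapl2, Il2ra, Il2rb, Il9r, Il13ra1, Il13ra2, Il5ra, Il17rc and Il17rd, and the antagonists or binding proteins were Il1f5, Il1f10 and Il22ra2. The megakaryocyte-acting cytokines Il3 and Il11 were among them, Il3 with both group means below the control level. Il11, shown after its values were seen, had signals of 15.6, 17.1 and 7.13 in bone marrow and 21.5, 17.1 and 2.09 in fetal liver, near that level in both.

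With no filter, 7 of these 40 genes were called, and their values were chosen for print after they were seen. Il1f9, an IL-36 gamma gene, had signals of 57.3, 117 and 129 in bone marrow and 6.60, 5.46 and 1.55 in fetal liver, at least 8.95-fold higher (adjusted p = 6.88e-04). Il13ra1, a chain of the IL-13 receptor, had signals of 74.4, 38.9 and 109.7 in bone marrow and 0.608, 3.72 and 1.49 in fetal liver, at least 6.41-fold higher (adjusted p = 6.82e-04). In both genes every fetal liver array was below the control level and every bone marrow array above it. Il7, the lymphoid growth factor, was at least 2.96-fold higher in bone marrow (adjusted p = 0.0170), Il2rb, a chain shared by the IL-2 and IL-15 receptors, at least 2.87-fold (0.0298), and Il22ra2, a soluble IL-22-binding protein, at least 2.08-fold (0.00869). Il34, a ligand of the CSF1 receptor, went the other way. Its signals were 2.22, 0.621 and 1.27 in bone marrow and 20.9, 14.9 and 19.2 in fetal liver, at least 1.70-fold lower in bone marrow (adjusted p = 0.00368). Il18r1, given above, is the seventh.

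The genes around these members were counted in lists of interleukin processing and signalling. Of 52 tested genes 19 were higher in bone marrow, 7 were lower and 26 were not called, with a median log2 difference of 0.22, against 18.3 percent higher and 17.8 percent lower over all genes. Of the 52, 5 passed the filter with a fetal liver mean below its signal, and so could only lie higher in bone marrow, called or not. Of the genes that mature IL-1 beta and IL-18, 5 of 6 tested were called higher and none was called lower. Casp1 and Nlrp3 are among the genes that passed the filter through bone marrow alone. Casp1, the protease that cuts both cytokines, had signals of 1065, 1036 and 1240.1 in bone marrow and 20.3, 11.2 and 15.6 in fetal liver (log2 difference 6.19 ± 0.25, SE, adjusted p = 7.27e-07). Casp4, which senses bacterial lipopolysaccharide in the cell, had a log2 difference of 3.75 ± 0.18 (SE, adjusted p = 1.39e-06). Nlrp3, an inflammasome sensor, was at least 13.2-fold higher (adjusted p = 2.51e-04), and the pore protein gene Gsdmd had a log2 difference of 1.24 ± 0.17 (SE, adjusted p = 4.66e-04). Those 4 thus lay on the same side as Il1b and Il18. Pycard, the uncalled gene of this list, is shown after its values were seen. Its signals were 2071, 1873 and 1958 in bone marrow and 2163, 2450 and 2300 in fetal liver. It was lower on every bone marrow array without being called (-0.23, 95% interval -0.43 to -0.03, adjusted p = 0.0752).

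Receptor chains and cytokines that pair with interleukin receptors under other names were higher in 7 of 11 tests and lower in 1. The shares over all genes tested were 18.3 percent and 17.8 percent. Of the 11, 3 passed the filter through bone marrow alone, Tslp among them. Osm encodes oncostatin M, a gp130 cytokine, and had signals of 766, 746 and 761 in bone marrow and 47.2, 31.6 and 22.7 in fetal liver (log2 difference 4.55 ± 0.26, SE, adjusted p = 3.36e-06). Csf2rb, the beta common chain that partners Il3ra, had signals of 781, 1177 and 1102 in bone marrow and 161, 163 and 197 in fetal liver. Its log2 difference was 2.54 ± 0.18 (SE, adjusted p = 1.22e-05), while Il3ra itself was not called. Tslp, a cytokine that uses the IL-7 receptor chain, had a log2 difference of 4.11 ± 0.36 (SE, adjusted p = 3.59e-05), and its own receptor chain gene Crlf2 one of 1.04 ± 0.12 (SE, adjusted p = 1.68e-04). The 1 lower gene, Ebi3, named after its value was seen, encodes a subunit shared by IL-27 and IL-35 and had signals of 351, 536 and 526 in bone marrow and 1090.5, 1305 and 1266 in fetal liver (log2 difference -1.40 ± 0.18, SE, adjusted p = 3.17e-04).

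The signalling genes inside the cell were more evenly divided, and were called about as often as genes in general. Over all genes tested 36.1 percent were called, 18.3 percent higher and 17.8 percent lower in bone marrow. Of 10 Janus kinase and STAT genes 3 were higher (Stat2, Stat4 and Stat6, by 0.51, 0.41 and 0.49 on the log2 scale) and 1 lower, Jak3, the kinase of the common gamma chain (-0.61, adjusted p = 0.0142). Of 11 adaptors and kinases of IL-1 and Toll-type receptors, 2 were higher and 2 lower. Irak3, an inhibitory kinase of that pathway, had signals of 1092, 1197 and 1244 in bone marrow and 324, 269.5 and 287 in fetal liver (log2 difference 2.01 ± 0.13, SE, adjusted p = 5.83e-06). Tab3 was higher (0.38), and Tab1 (-0.60) and Tab2 (-0.30) lower, all 3 subunits of a kinase complex. Among 14 suppressor genes 2 were higher, Socs3 (4.23 ± 0.31, SE) and Cish (0.81 ± 0.19, SE), and 3 lower, of which the phosphatase genes Ptpn11 (-0.55 ± 0.12, SE) and Ptpn6 (-0.45 ± 0.10, SE) had the smallest adjusted p.

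Granulocyte and macrophage markers moved with these differences. In each of these lists 1 tested gene passed the filter through bone marrow alone and could only be higher there. Over all genes tested 18.3 percent were higher. All 12 granulocyte and monocyte markers, led by Mpo, Lyz2 and S100a9, were higher in bone marrow, with summed signals of 55689 to 68198 in bone marrow and 7857 to 9753 in fetal liver. Of 9 macrophage markers 5 were tested and all 5 were higher, led by Cd68, Csf1r and C1qb, with sums of 1907 to 2387 in bone marrow and 331 to 449.9 in fetal liver, and with Marco and Vsig4 below the control level in both groups. These are cell types in which Il1b, Il1rn, Il1r2, Il18, Il6ra, Casp1 and Nlrp3 are known to be expressed, and their part in the result was not tested.

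Markers of other blood cells were mixed within their lists. For B lymphoid genes 5 of 6 tested were higher in bone marrow, against 18.3 percent of all genes tested. Of the 6, 4 passed the filter through bone marrow alone and could only be higher there. The sums were 3240.1 to 4743 in bone marrow and 1285 to 1495 in fetal liver. Of the 3 with the highest signal, Vpreb1 and Ebf1 were called and Cd79b was not, and Pax5 was below the control level in both groups. Among the 9 B lymphoid genes found, 7 lay higher in bone marrow without overlap, against 18.8 percent of all named genes. The fit with no filter called 7 higher, against 12.6 percent. For T and NK genes sums were 4306 to 4382 in bone marrow and 1003 to 1321 in fetal liver. The sums followed Nkg7, which averaged 3781 in bone marrow and 842 in fetal liver and was the 1 of 3 tested called higher. Of the 9 genes found, 7 lay higher in bone marrow without overlap, against 18.8 percent of all named genes. With no filter 6 were called higher, against 12.6 percent. Cd247 was lower on every bone marrow array without being called (-0.60, adjusted p = 0.0506). Gzma, which passed the filter through bone marrow alone, was higher on every bone marrow array but was not called (4.17, adjusted p = 0.0568).

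For mast cell and basophil genes 5 of 6 tested were higher, but 3 of the 6 passed the filter through bone marrow alone. Those 3, named after their values were seen, were Fcer1a, Ms4a2 and Mcpt8. They were at least 218-fold, 9.67-fold and 80.2-fold higher in bone marrow. The sums were 10769.9 to 12017 in bone marrow and 6288 to 7233 in fetal liver. Gata2, which has the highest signal of the list, was the largest part of these sums, averaging 6754 in bone marrow and 6552 in fetal liver. It was not called (0.047). Cpa3 and Hdc were called, and Cma1 and Mcpt4 were below the control level in both groups. All 3 tested dendritic cell genes (Bst2, Flt3 and Siglech) were higher, but Flt3 and Siglech passed the filter through bone marrow alone. Dendritic sums were 1128 to 1407 in bone marrow and 660.4 to 812 in fetal liver, and Cd209a and Xcr1 were below the control level in both. Of the eosinophil genes Prg2 was called higher and Siglecf was not called, Epx was not tested and Ccr3 was below the control level in both, with sums of 682 to 1628 in bone marrow and 362 to 565 in fetal liver. Erythroid sums were 3798 to 9786 in bone marrow and 2145 to 2786 in fetal liver, with 2 of 4 genes higher (Slc4a1 and Alas2), Epor lower (-0.59, adjusted p = 0.0228) and Klf1 not called. The part of any of these cells in the differences of Il7r, Il2rb, Il15ra or the others was not tested.

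The lists for endothelial and stromal cells and for hepatoblasts had higher sums in fetal liver, through a few genes. Endothelial and stromal genes summed to 920.2 to 1135 in bone marrow and 1960.4 to 2802 in fetal liver. Egfl7 and Kdr were lower in bone marrow, Pecam1 was not called, Col1a1 and Cxcl12 were higher in bone marrow without overlap but not tested, and Col3a1 and Lepr were below the control level in both. Hepatoblast genes summed to 300.2 to 357 in bone marrow and 1019 to 1475 in fetal liver, a difference that followed Dlk1, which averaged 13.8 in bone marrow and 1097 in fetal liver. Afp was called higher in bone marrow (1.84, adjusted p = 3.02e-04), Apoa1 was not called, and of the untested genes Hnf4a was higher and Alb lower in bone marrow without overlap. Egfl7, Kdr, Dlk1 and Alb thus stood higher in the same group as Il10ra and Il34. Afp, Hnf4a, Col1a1 and Cxcl12, of the same lists, stood higher in the other group. The part of endothelial, stromal or hepatoblast cells in the Il10ra and Il34 results was not tested.

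**Figure D4:**
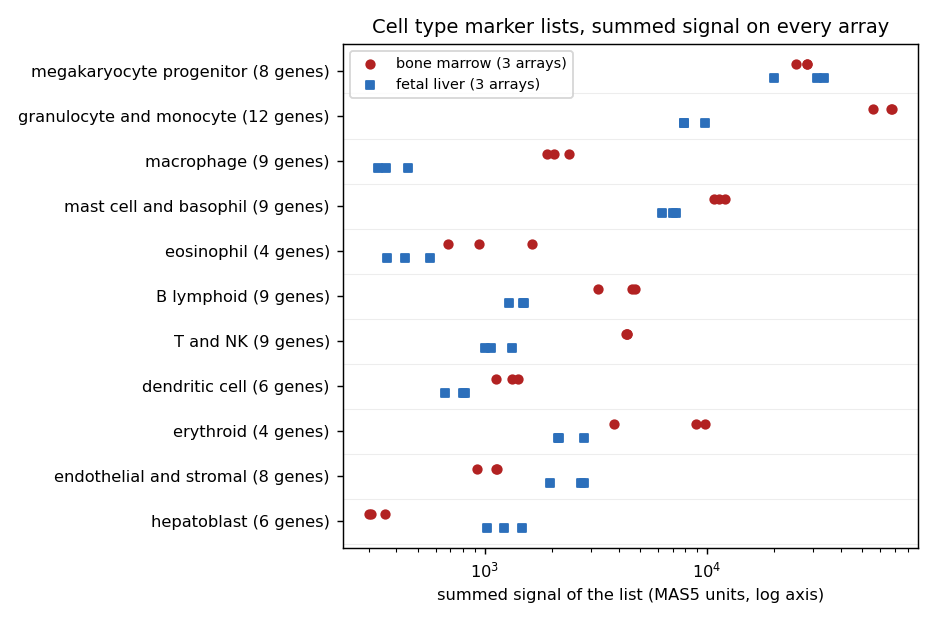
Summed signal of 11 cell type marker lists on each array, in MAS5 intensity units on a log axis, with bone marrow (circles, 3 arrays) above fetal liver (squares, 3 arrays) in each row. The megakaryocyte progenitor sums overlap, the blood lineage lists lie higher in bone marrow without overlap, and the endothelial and stromal and hepatoblast sums lie lower in bone marrow, the last following Dlk1.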

How the data were processed

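RNA of 6 sorted progenitor samples was measured on Affymetrix mouse arrays. The authors deposited linear intensity signals from MAS5, as the submitters' processing notes name it with no version. Low MAS5 signals are noisy, and a ratio against a group mean under the control level is given as a bound. The deposited signals had a trimmed mean of 500 on each array (2% trimmed from both ends).

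Of 45101 probe sets, 64 were controls. The 73 genes had 115 probe sets with 1 symbol in the platform annotation, and 3 further probe sets with several symbols were left out. All 73 matched the RefSeq table (GRCm38.p6) by Entrez identifier. After log2 transformation without an offset, probe sets with a mean above the 40th percentile were kept (27022), and limma (version 3.58.1, R 4.3.3) fitted tissue on 1 probe set per gene with a trended prior. P-values were adjusted by Benjamini-Hochberg over all 11645 genes tested. The number of arrays limits the precision. The fit was tested on simulated data.

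The genes and lists were chosen with earlier results of these data known. Values are printed for all called genes, for the 6 uncalled tested genes with the highest mean signal, and for up to 4 called genes per signalling list with the smallest adjusted p. For each marker list the 3 genes of highest signal and those below the control level are named. In all, 56 of 61 signalling genes had a probe set with 1 symbol; the others were not analysed here. Alternatives were no filter, a 60th percentile filter, quantile normalization, median centring, an offset, a floor at the control level, averaging a gene's probe sets, no variance trend, array weights, a robust prior, leaving out each array and a replicate block. Python 3.11.15 with pandas 2.3.3 and numpy 2.4.6 made the tables, and matplotlib 3.10.9 the figures.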

Additional observations from a re-analysis of the deposited data

How the results depend on the processing

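Over 17 alternatives, 13 of the 22 called genes kept their call and direction wherever they were tested: Il1b, Il18, Il6, Il16, Il1rn, Il1r1, Il1r2, Il1rl2, Il15ra, Il6ra, Il31ra, Il27ra and Il10ra. Il10rb, Il12a, Il15, Il17ra, Il17rb, Il18bp, Il1bos, Il1rap and Il6st lost the call under at least 1. With no filter 2 of the 73 genes and 4 signalling genes were lower in bone marrow. With the 60th percentile filter 11 genes were higher and 0 lower, 7 receptors were higher and 0 lower (Il10ra was not tested there), and 1402 of all genes were higher. Median centring moved the median of all genes from -0.04 to -0.20 and gave 1686 genes higher and 3649 lower, where 2134 were higher and 2074 lower without it, and 11 signalling genes lower. Quantile normalization moved the median to -0.07. Under these scalings 18 and 17 of the 73 genes were higher and 1 lower, and Il10ra kept its direction. Array weights gave 3169 of all genes lower and 2 of the 73 lower, both receptors. Il4ra changed sign under quantile normalization (-0.047) and array weights (-0.015), and Il18rap, which ran from -0.59 to 0.43 when arrays were left out, without bone marrow replicate 1; none of those was called. The cause of these shifts was not tested.

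Leaving out each array in turn gave 17 to 19 genes higher and 1 to 2 lower, 5 ligands higher in every case, and 10 to 12 receptors higher and 1 to 2 lower. Signalling genes numbered 16 to 20 higher and 3 to 8 lower, and all genes 1597 to 2243 higher and 1268 to 2193 lower. Replicate numbers did not pair the samples: deviations of same-numbered arrays correlated at -0.08, 0.07 and -0.11. With the replicate block, 21 of the 73 genes were higher and 1 lower, 6 ligands and 12 receptors were higher, 19 signalling genes were higher and 6 lower, and 1991 of all genes were higher and 1856 lower. Low signals limit what can be said of the 26 genes below the control level in both groups.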

Other observations

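Probe sets annotated to more than 1 symbol stand outside the 73 genes. The probe set shared by Ntan1 and Il2 had signals of 2039, 1634 and 1726 in bone marrow and 1505, 1245 and 1624 in fetal liver, while the probe set of Il2 alone was below the control level on every array. The probe set shared by Il4i1b and Il4i1 had signals of 32.3, 25.1 and 36.7 in bone marrow and 38.1, 24.1 and 33.5 in fetal liver. Which of the genes gave these signals was not tested.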
